A study of Mus musculus with 12 samples.

Results

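Wnt ligands, their receptors and the proteins that raise or lower the signal were followed in satellite cells, the stem cells of skeletal muscle, from Cxcr4 WT and Cxcr4 KO mice. The members are the protein-coding genes of the count table named as Wnts, Frizzleds, R-spondins, Sfrp and Dkk antagonists, Lrp5 and Lrp6, Lgr4 to Lgr6, Tcf/Lef factors, Axins and Dishevelleds. They number 55 of 55401 genes, and 48 passed the filter on low counts. The other 7 were Wnt3a, Wnt7a, Wnt8a, Wnt16, Rspo4 and Dkk1, each at or below 1.16 CPM in every library, and Fzd6, which was listed at 0 in all 12 libraries. CPM are read counts scaled to the TMM-adjusted total of their library.

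Hind limb cells carrying the Pax7-ZsGreen reporter were sorted from adult mice, and polyA RNA was sequenced from 4 WT and 4 KO libraries of freshly sorted (quiescent) cells and 2 WT and 2 KO libraries of cells cultured overnight (activated). All mice, controls included, carried Cxcr4 FL/FL alleles and received tamoxifen at 80 mg/kg by IP injection for 5 consecutive days, and KO mice alone carried Pax7-creERT2, which acts where Pax7 is expressed. Nothing in the labels said which libraries came from separate animals, so the p-values measure the spread between these libraries, which may be technical. The deleted gene, Cxcr4, was at 59.1 to 112 CPM in quiescent WT and 12.5 to 21.2 CPM in quiescent KO libraries, and at 33.3 and 14.4 CPM in activated WT and 5.39 and 13.7 CPM in activated KO libraries.

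A Wnt ligand binds a Frizzled receptor on the cell surface. Together with the co-receptor Lrp5 or Lrp6, the receptor recruits Dishevelled and Axin, beta-catenin is spared from destruction, and Tcf/Lef factors then switch on target genes; other Wnts act through planar polarity and calcium branches without beta-catenin. R-spondins raise the signal through Lgr4, Lgr5 and Lgr6, whereas Sfrp and Dkk proteins block ligands or co-receptors from outside the cell. In muscle, Wnt signals are known for their part in keeping satellite cells quiescent and in guiding their division and differentiation.

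The activated libraries stood apart from the quiescent ones in several ways. They held 3172164 to 5427280 counts against 12775593 to 23717013 in quiescent libraries, and 1 ribosomal RNA-like gene, CT010467.1, took 11.5% to 40.3% of their counts against at most 0.807%. Xist was at 451 to 817 CPM in activated and 1.20 to 7.17 CPM in quiescent libraries, and Y-linked Ddx3y at 0 to 2.28 and 289 to 570 CPM. Sex, depth, culture and state therefore cannot be told apart in any comparison of activated with quiescent cells. The summed level of 9 satellite cell markers was 4733 to 8099 CPM in quiescent and 2314 to 3521 CPM in activated libraries, and none of the 9 was at 0 in all libraries of a group. Sdc4 and Myod1 made up most of the quiescent sums, at 2140 to 3067 and 813 to 3097 CPM. In activated libraries Sdc4 was at 712 to 1181 and Myod1 at 1260 to 1886 CPM. Pax7 itself was at 303 to 482 CPM in quiescent WT, 181 to 290 in quiescent KO and 71.2 to 130 CPM in activated libraries. The sums of 8 muscle fibre markers were 274 to 918 CPM in quiescent and 6594 to 16416 CPM in activated libraries. In bulk RNA, fewer cells of a type and less RNA per cell cannot be told apart.

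Start regions of the members were first searched for the letters that Tcf/Lef factors are known to bind, on both strands. The search took CTTTGA or CTTTGT, each followed by A or T, and no other motif. RefSeq windows on GRCm38.p6, each reaching from 250 bases before to 50 bases after a start, were at hand for 37 of the 55 members, in 45 windows. The letters stood in 7 of these windows (15.6%), against 16.9% of all 32851 windows. The stretches of 30 bases around them are shown because they mark the members whose own start region holds the pathway's letters, with the match in capitals, and each is printed 5′ to 3′ on the strand of its gene.
Wnt3: acctcaagtggaCTTTGTTccaactattgg
Wnt5b: gagtaagtctctCTTTGATctgctccctgt
Wnt11: tgacgtgggcggATCAAAGcgacggtccgc
Fzd7: gtccacagagaaAACAAAGcgcgctattgg
Dkk1, nearer match: atcccatcccggCTTTGTTgtcttccctga
Dkk1, farther match: ctcctcccaaagCTTTGAAatcccatcccg
Lef1: acaacctcagaaTACAAAGtaggattgcat
Tcf7l2: caaaatatcaggCTTTGTTcttttgattga
They lie at chr11:103774181-103774210 (plus strand) for Wnt3, chr6:119449440-119449469 (minus) for Wnt5b, chr7:98835049-98835078 (plus) for Wnt11, chr1:59482005-59482034 (plus) for Fzd7, chr19:30549577-30549606 and chr19:30549596-30549625 (minus) for Dkk1, chr3:131156135-131156164 (plus) for Lef1 and chr19:55895295-55895324 (plus) for Tcf7l2. The Wnt11 match begins 51 bases before the RefSeq start of its window, the Tcf7l2 match 14 and the Fzd7 match 130 bases before theirs. Wnt5b had 1 such window of 3, Lef1 1 of 4, and Wnt11 and Tcf7l2 1 of 2 each. Which start these cells use was not measured, and a match is a description of the letters, not of binding. Of the 12 members called on activation in both genotypes, as described further on, 8 had a window, and none of those 8 windows held the letters, where 16.9% of all windows did. Whether these shares differ was not tested. G and C made up a median of 74.0% of the bases in those 8 windows, 67.7% in the member windows and 52.7% in all windows.

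Quiescent WT cells carried many, but not all, of the parts that receive a Wnt signal at higher levels than most of the ligands. Levels are compared between genes as CPM per kb of exon. Some receiving parts lay among the ligands, such as Lgr6 at 0.412, Fzd10 at 0.355, Lef1 at 0.290 and Lgr5 at 0.157 CPM per kb. Dvl1, a Dishevelled that relays the signal from the receptor, stood highest at 48.7 CPM per kb, with no library overlapping the next member. Axin1, the scaffold of the beta-catenin destruction complex, followed at 19.3, the secreted antagonist Sfrp5 at 18.8 and the receptor Fzd4 at 17.8 CPM per kb, and these did not separate beyond the spread of their libraries. Fzd4 did not overlap the next member, Tcf7l1, the Tcf/Lef factor best known as a repressor, at 13.5 CPM per kb. From Tcf7l1 through Fzd1, Dvl3, Wnt4, Lrp6, Lgr4, Fzd5, Fzd7 and Fzd8 down to Tcf7l2 (3.85 CPM per kb), each member overlapped its neighbour.

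Among the ligands, Wnt4 led with 12.2 CPM per kb. It made up 58.1% ± 9.98 (SD, n = 4) of the summed Wnt level of quiescent WT cells and 53.6% ± 9.12 (SD, n = 4) of that of quiescent KO cells. The highest members of the remaining roles were Rspo3 among the R-spondins (1.00 ± 0.203 CPM, SD, n = 4), Dkk3 among the Dkk proteins (7.38 ± 3.5 CPM), Lrp6 of the co-receptors (156 ± 37.0 CPM) and Lgr4 of the R-spondin receptors (65.2 ± 10.4 CPM). Per kb, libraries of Rspo3 overlapped those of Rspo1, and those of Dkk3 overlapped those of Dkk2 and Dkk4. Lgr4 held 94.8% ± 3.27 of the summed Lgr level.

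**Figure D1:**
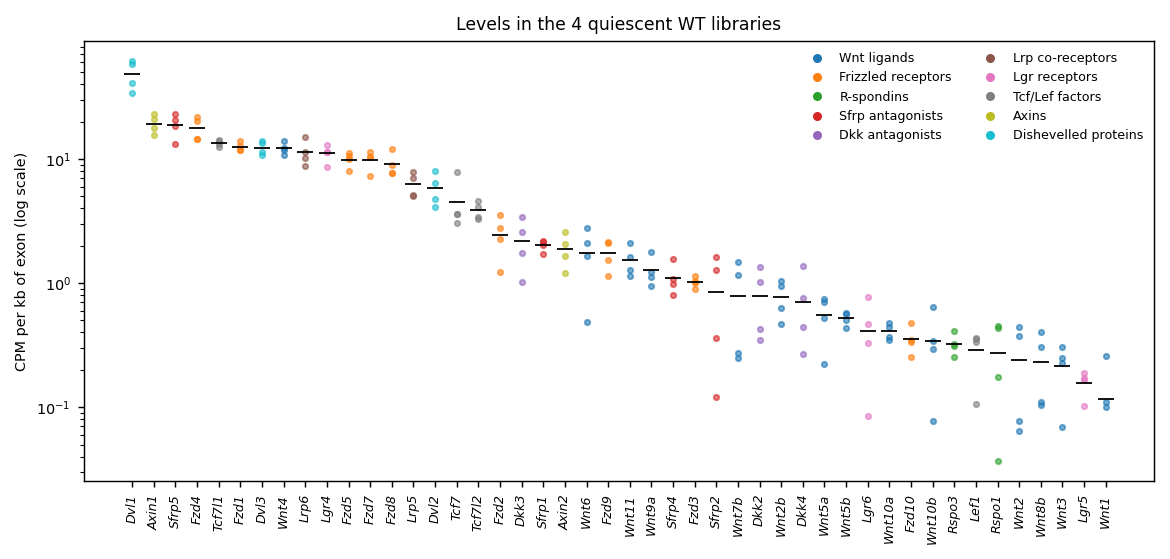
Level of each member in the 4 quiescent WT libraries, as CPM per kb of exon on a log axis, with 1 point per library, the mean as a bar and colours for the roles. The 46 members with a mean above 0.1 are drawn, and 1 library at 0 is not. Dvl1 stands above the rest and Wnt4 is the one ligand among the highest members.

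Loss of Cxcr4 moved no member past the test in quiescent cells. A gene was called where edgeR's quasi-likelihood test gave an adjusted p under 0.05, the log2 fold change passed 1 in either direction and the normalized count averaged over 10. None of the 48 members was called, where 0.0155% of all 25771 genes were, and DESeq2 called none either. At an unadjusted p under 0.05 there were 2 members, against 1.74% of all genes, and DESeq2 also gave 2. The median log2 fold change of the members was -0.07, beside 0.02 over all genes.

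The 2 members were Wnt8b, a ligand, and Lgr5, an R-spondin receptor best known from intestinal stem cells. Wnt8b was at 0.365, 1.06, 1.40 and 0.385 CPM in WT and 2.35, 4.71, 2.53 and 0.756 CPM in KO libraries. It was 1.67 ± 0.73 (SE) higher on the log2 scale (edgeR, adjusted p = 1), and KO replicate 4 overlapped the WT libraries. Lgr5 was at 1.04, 1.77, 1.71 and 1.93 CPM in WT and 3.44, 5.60, 2.58 and 1.75 CPM in KO libraries. Its difference was 1.04 ± 0.46 (edgeR, adjusted p = 1), and again KO replicate 4 lay within the WT range. The groups did not overlap for 1 member alone, Wnt5b, at 1.16 to 1.51 CPM in WT and 1.70 to 2.40 CPM in KO libraries, where 1.70% of all genes did not overlap. Over the 8 quiescent libraries Pax7 also did not overlap between WT and KO.

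For the well-measured members the interval of the KO effect was narrow. The log2 fold change of Wnt4 was -0.04 (95% interval -0.54 to 0.45), of Fzd4 -0.10 (-0.66 to 0.47), of Tcf7l1 -0.22 (-0.64 to 0.20) and of Axin1 0.08 (-0.32 to 0.49). Sfrp5 varied more, from 18.7 to 71.4 CPM within quiescent KO libraries, and its interval ran from -0.45 to 0.95. Axin2, a common readout of beta-catenin signalling, averaged 10.4 ± 3.25 CPM in WT cells, near the 10.2 ± 1.57 CPM of KO cells (SD, n = 4).

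In activated cells, where each genotype had 2 libraries, no member was called by edgeR either, where 0.0504% of all genes were. The deleted gene, Cxcr4, was itself not called here (-1.35 ± 0.46, edgeR adjusted p = 0.381), although its libraries did not overlap. The absence of calls therefore does not show that the members were unchanged. At an unadjusted p under 0.05 there were 6 members (12.5%), against 8.37% of all genes, and 16 members did not overlap between the groups, where 24.7% of all genes did not. Their median log2 fold change was -0.08, beside 0 over all genes.

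Fzd1, a Wnt receptor, came nearest to a call by edgeR. The study itself, with DESeq2 and the same limits on adjusted p, fold change and mean count, listed Fzd1 as lower in activated KO cells. It was at 50.5 and 34.6 CPM in WT and 15.2 and 10.0 CPM in KO libraries. Its log2 fold change was -1.77 ± 0.36 (SE), with an adjusted p of 0.0874 by edgeR, and both KO libraries lay below both WT libraries. DESeq2, with 7 members at an unadjusted p under 0.05, called Fzd1 lower and Lgr5 higher, as did edgeR without the filter on low counts, and Fzd1 alone was also called without WT activated replicate 2 and with the replicate block. In quiescent cells Fzd1 was at 49.2 to 58.1 CPM in WT and 28.4 to 53.3 CPM in KO libraries.

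Lgr5 lay at 1.31 and 0.438 CPM in activated WT and 6.94 and 11.4 CPM in activated KO libraries. The log2 fold change was 3.21 ± 0.78 (edgeR, adjusted p = 0.141), the same direction as in quiescent cells. Without WT activated replicate 1 it was 4.26 (adjusted p = 0.711). Blood cell markers were 9 of 9 higher in quiescent KO than in WT cells by their estimates, with sums of 88.6 to 193 CPM in WT and 102 to 437 CPM in KO libraries, and 6 of 9 higher in activated KO cells. In quiescent KO replicates 1 to 4 the blood sums were 166, 148, 102 and 437 CPM, beside Lgr5 at 3.44, 5.60, 2.58 and 1.75 CPM. Muscle fibre markers were 8 of 8 higher in KO cells by their estimates in both states. These estimates were 0.03 to 0.34 on the log2 scale in quiescent and 0.004 to 0.82 in activated cells. All 8 overlapped between the genotypes in each state, and none had an unadjusted p under 0.05 by edgeR. The part of other cells in the Lgr5 values was not tested.

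The remaining 4 members were less sure. Wnt11, a ligand of the planar polarity branch, was at 12.6 and 6.13 CPM in WT and 3.85 and 2.05 CPM in KO libraries (log2 fold change -1.71 ± 0.59, edgeR adjusted p = 0.385). Fzd2, a receptor, was at 4.25 and 0.876 CPM in WT and 5.39 and 15.7 CPM in KO libraries (1.87 ± 0.73, edgeR adjusted p = 0.469). None of the 4 overlapped between the genotypes. The antagonists Sfrp5 and Dkk3 moved apart by -1.37 ± 0.62 (edgeR adjusted p = 0.582) and 2.12 ± 1.00 (edgeR adjusted p = 0.595). With 1 library left out these estimates moved both ways. The Fzd2 estimate was 3.48 without WT activated replicate 1, 1.23 without WT activated replicate 2 and 0.84 without KO activated replicate 2. The Sfrp5 estimate was -2.32 without KO activated replicate 2 and -0.71 without WT activated replicate 1. The Dkk3 estimate was 1.009 without KO activated replicate 1 and 1.51 without WT activated replicate 2, and without WT activated replicate 1 the remaining activated WT library held no Dkk3 read.

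**Figure D2:**
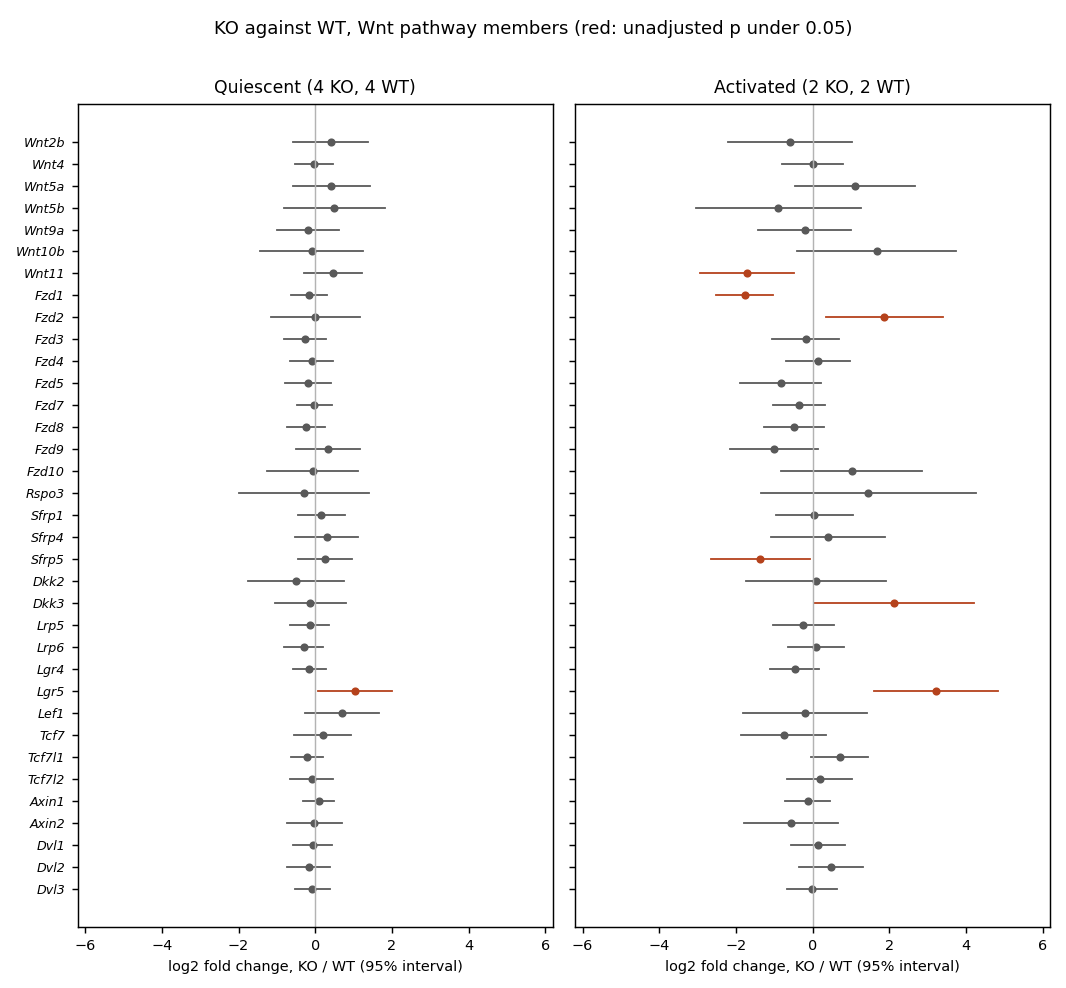
Log2 fold change of KO against WT, with its 95% interval from edgeR, in quiescent cells (4 libraries per genotype, left) and activated cells (2 per genotype, right). The 35 members with more than 3 counts in each activated group are drawn, and red marks an unadjusted p under 0.05. All 35 intervals are wider in activated than in quiescent cells, and Fzd1 is the lowest of the red points in activated cells.

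The KO effect was also compared between the 2 states. No member was called for this difference by edgeR, and 0% of all genes were. At an unadjusted p under 0.05 there were 6 members, against 6.59% of all genes, namely Fzd1, Wnt11, Lgr5, Sfrp5, Tcf7l1 and Fzd2. DESeq2 called 1 member, Fzd1, whose difference was -1.60 ± 0.42 by edgeR (adjusted p = 0.355). The same contrast compares the change on activation between the genotypes, so no difference between WT and KO in that change passed the edgeR test.

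On activation, the members were called in WT cells about as often as all genes were. There 14 of 48 members were called (29.2%), against 26.2% of all genes. Of these, 13 fell (27.1%, against 16.5% of all genes) and 1 rose (9.65% of all genes did). In KO cells 21 were called (43.8%, against 29.6%), 17 of them lower (35.4%, against 18.5%) and 4 higher (11.1% of all genes). The median log2 fold change was -0.83 in WT and -1.22 in KO cells, beside -0.92 and -0.96 over all genes. With members at 0 in the activated group set to their bounds, these medians were -0.67 and -1.08.

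The WT and KO libraries of these comparisons are different samples. The calls coincided in the same direction for 12 of the 48 members tested, where they did for 20% of all genes tested. Over all genes these were 5166, out of 6750 called in WT and 7633 called in KO cells. The 12 members were out of 14 called in WT and 21 called in KO cells. They were Wnt4, Fzd4, Fzd5, Fzd8, Fzd9, Sfrp4, Sfrp5, Dkk3, Lrp5, Lgr4, Tcf7l1 and Axin2. For 7 of them, Wnt4, Fzd5, Fzd8, Fzd9, Sfrp5, Lrp5 and Tcf7l1, the call held in both genotypes under all 18 alternatives, which were other scaling, filters, tools and thresholds, the replicate block and each library left out in turn. By sign alone, 38 of the 48 members moved the same way in both genotypes, and the share of all genes that did was not computed. For 27 members in WT and 28 in KO cells the activated and quiescent libraries did not overlap, where 56% and 54.4% of all genes did not.

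**Figure D3:**
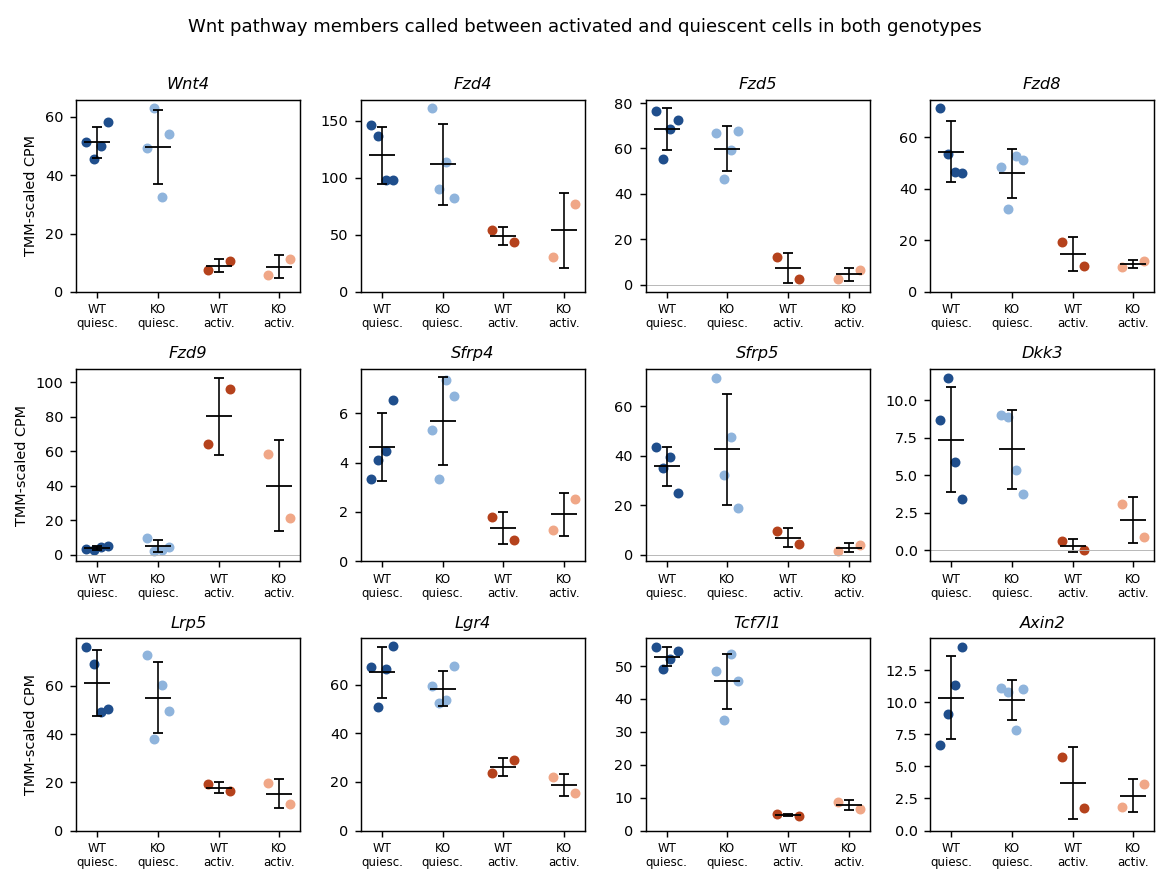
TMM-scaled CPM of the 12 members called in both genotypes, each library as a point, with the group mean and SD (n = 4 quiescent, n = 2 activated) in black. Fzd9 is higher in every activated library than in any quiescent one, and the other 11 are lower.

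Of the ligands, Wnt4 fell most surely. It was at 51.4, 45.6, 49.96 and 58.3 CPM in quiescent WT and 49.5, 63.0, 32.6 and 54.0 CPM in quiescent KO libraries. After culture it was at 7.35 and 10.5 CPM in WT and 5.91 and 11.4 CPM in KO libraries, below every quiescent library. The log2 fold changes were -2.56 ± 0.36 in WT and -2.51 ± 0.35 in KO cells (edgeR, adjusted p = 1.95e-05 and 1.72e-05). As a share of the summed Wnt level, Wnt4 went from 58.1% to 22.3% ± 8.18 (SD, n = 2) in WT cells, and Wnt9a, which was not called, from 5.94% ± 1.44 to 25.3% ± 0.270. The summed Wnt level was 19.3 to 22.4 CPM per kb in quiescent WT and 10.6 and 8.91 in activated WT libraries.

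The other ligands lay low, and their calls rested on few reads. Wnt6 was called in WT alone, at 3.65, 6.10, 4.65 and 1.06 CPM in quiescent libraries and 0.163 and 0 after culture, which is 284 reads against 1. The ratio of pooled counts was 31.1-fold lower (95% interval 5.53 to 1232, counting error only), and the call (edgeR, adjusted p = 0.0183) was lost without either activated WT library, at an adjusted p up to 0.112. In KO cells Wnt6 was at 0 and 2.05 CPM after culture and was not called.

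Wnt7b and Wnt8b, both ligands, had no read in either activated KO library. They were at least 7.22-fold and at least 6.67-fold lower than in quiescent KO cells, taking 3 counts over the group as the floor (edgeR, adjusted p = 0.00609 and 0.00754). Wnt7b had been at 2.97, 4.78, 1.74 and 1.79 CPM in quiescent KO libraries, and 6.61% of its exons overlap an antisense gene. The call of Wnt7b was lost without KO activated replicate 2 and that of Wnt8b without either activated KO library, at adjusted p up to 0.0521 and 0.0694. In WT cells Wnt8b also had no read after culture and was at least 2.26-fold lower, but was not called (edgeR, adjusted p = 0.0512).

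Wnt10a fell in KO cells from 2.97, 2.12, 1.25 and 1.09 CPM to 0 and 0.228 CPM, 141 reads against 1, a ratio of 14.8 (95% interval 2.61 to 587, counting error only). Wnt10b rose there, from between 0.478 and 1.66 CPM to 2.83 and 6.16 CPM (log2 fold change 2.06 ± 0.77, edgeR adjusted p = 0.0449). Wnt10a lost its call without KO quiescent replicate 1 or either activated KO library, and with no filter on low counts. Wnt10b lost it without WT quiescent replicate 2, KO quiescent replicate 1, 2 or 4, or any 1 of the activated libraries, with no filter and under the replicate block, and its log2 fold change was 1.40 without KO activated replicate 2. The adjusted p reached 0.251 for Wnt10a and 0.438 for Wnt10b over the alternatives.

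Wnt11, whose start region holds the Tcf/Lef letters shown above, fell in KO cells from 10.7, 4.99, 6.69 and 12.7 CPM to 3.85 and 2.05 CPM. The log2 fold change was -1.58 ± 0.53 (edgeR, adjusted p = 0.0269), and the call was lost without KO quiescent replicate 4, KO activated replicate 1 or KO activated replicate 2 and under the replicate block (adjusted p up to 0.273). In WT cells it was at 4.70 to 8.73 CPM before and 12.6 and 6.13 CPM after culture and overlapped. Of the exons of Wnt11, 8.80% overlap a gene on the other strand, and the strand setting of the counting is not given in the sources used here. Among the members, larger exon overlaps with other genes were those of Dvl2 (19.7%), Fzd5 (17.8%), Sfrp2 (16.1%), Lef1 (13.75%) and Rspo3 (13.1%). The other ligands tested, Wnt1, Wnt2, Wnt2b, Wnt3, Wnt5a, Wnt5b, Wnt9a and Wnt9b, were called in neither genotype.

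The Frizzled receptors, to which the ligands bind, went in different directions. Fzd9 was at 3.55, 2.63, 4.82 and 4.91 CPM in quiescent WT libraries and 64.4 and 95.9 CPM after culture. In KO cells it was at 10.1, 2.19, 2.99 and 4.77 CPM before and 58.6 and 21.4 CPM after. All 4 activated libraries lay above all 8 quiescent ones. Fzd9 was the only member called higher in both genotypes, by 4.32 ± 0.47 on the log2 scale in WT (edgeR, adjusted p = 1.32e-06) and 2.99 ± 0.46 in KO cells (adjusted p = 5.39e-05). Without KO activated replicate 1 the KO value was 2.10, still called. The gene lies at chr5:135248938-135251230 on the minus strand of GRCm38, with an exon length of 2293 bases.

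Fzd5, Fzd8 and Fzd4 fell. Fzd5 was at 76.7, 55.3, 68.7 and 72.6 CPM in quiescent WT and 66.7, 46.3, 59.3 and 67.5 CPM in quiescent KO libraries. After culture it was at 12.1 and 2.63 CPM in WT and 2.57 and 6.39 CPM in KO libraries, far below every quiescent library. Its log2 fold changes were -3.08 ± 0.43 and -3.73 ± 0.46 (edgeR, adjusted p = 2.27e-05 and 4.83e-06). They were -4.62 without WT activated replicate 1 and -4.52 without KO activated replicate 2, and 17.8% of its exons overlap an antisense gene.

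Fzd8 fell from between 46.0 and 71.3 CPM to 19.4 and 10.1 CPM in WT cells (-1.83 ± 0.33, edgeR adjusted p = 0.000296) and from between 32.0 and 52.5 CPM to 9.76 and 11.9 CPM in KO cells (-2.09 ± 0.34, adjusted p = 9.35e-05). The groups did not overlap. Fzd4, a receptor of Wnts and of norrin that is known in vessels, was at 146, 136, 98.1 and 97.8 CPM in quiescent WT and 161, 90.05, 113 and 81.8 CPM in quiescent KO libraries. It was at 54.4 and 43.3 CPM in activated WT and 30.8 and 77.1 CPM in activated KO libraries (-1.28 ± 0.36, edgeR adjusted p = 0.0105, and -1.05 ± 0.35, adjusted p = 0.0281). The WT call was lost without WT activated replicate 2 (adjusted p = 0.118), and the KO call without KO quiescent replicate 1 or KO activated replicate 1 and with edgeR on the compared groups alone, while without KO activated replicate 2 the KO value was -1.84.

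The summed levels of 10 endothelial markers were 1576, 1554, 645 and 757 CPM in quiescent WT, 1743, 599, 1550 and 353 CPM in quiescent KO, 854 and 145 CPM in activated WT and 154 and 466 CPM in activated KO libraries. They were highest in the quiescent libraries in which Fzd4 was highest, and none of the 10 markers was at 0 in all libraries of a group. Sums of 8 mural markers were highest in the same libraries. They were 1606, 1850, 649 and 843 CPM in quiescent WT and 1316, 753, 1863 and 495 CPM in quiescent KO libraries. The part of these cells in the Fzd4 values was not tested.

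Fzd1 was called in KO cells alone. It went from 52.3, 28.4, 53.3 and 52.8 CPM to 15.2 and 10.0 CPM there (-1.89 ± 0.33, edgeR adjusted p = 0.000161), a call that held in every alternative. In WT cells it went from between 49.2 and 58.1 CPM to 50.5 and 34.6 CPM and overlapped (-0.29 ± 0.29, edgeR adjusted p = 0.435). The difference between the genotypes was the Fzd1 value given above, which did not pass edgeR's test. Fzd7, whose start region holds the Tcf/Lef letters and which is known as a receptor on satellite cells, was at 32.9 to 51.4 CPM in quiescent WT, 35.5 to 51.6 in quiescent KO, 45.4 and 30.2 in activated WT and 33.1 and 26.7 CPM in activated KO libraries, and was called in no comparison. Fzd2, Fzd3 and Fzd10 were not called either.

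The makeup of the receptors differed accordingly. Fzd9 held 2.72% ± 0.888 (SD, n = 4) of the summed Frizzled level per kb in quiescent WT cells and 42.9% and 62.7% in the activated WT libraries. In KO cells it held 3.44% ± 1.81 before and 55.2% and 24.9% after culture. Fzd4 held 27.4% ± 4.23 in quiescent WT cells and was the largest share in each quiescent library but KO replicate 4, where Fzd1 was. The summed Frizzled level was 60.1 to 74.4 CPM per kb in quiescent WT and 65.5 and 66.7 in activated WT libraries, and 45.2 to 73.7 in quiescent KO and 46.2 and 37.6 in activated KO libraries.

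**Figure D4:**
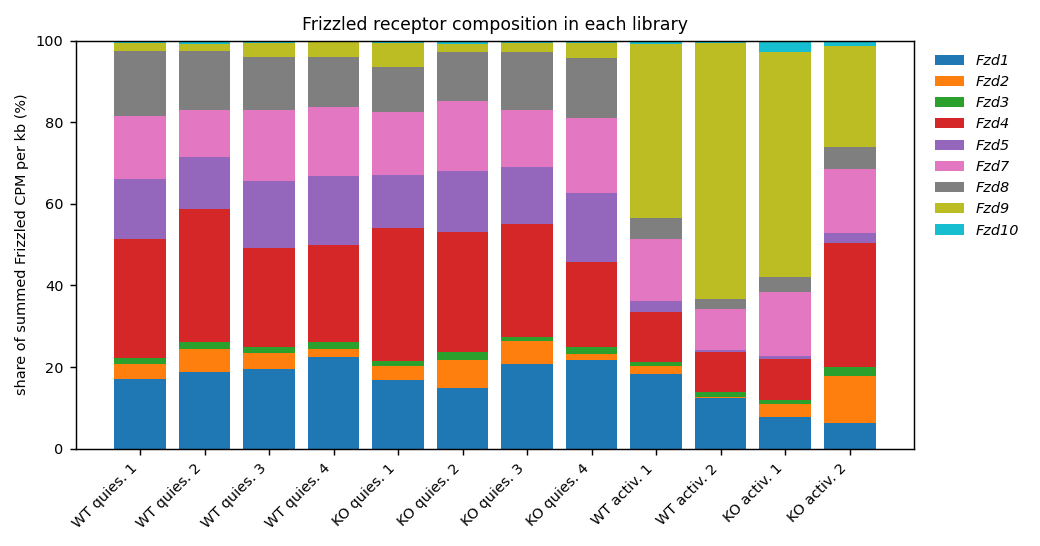
Share of each Frizzled receptor in the summed Frizzled level (CPM per kb of exon) of each library, as stacked bars that add to 100%. Fzd9 holds between 24.9% and 62.7% in the 4 activated libraries and at most 5.95% in the 8 quiescent ones, and Fzd6 was listed at 0.

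The co-receptor Lrp5 fell and its partner Lrp6 did not pass. Lrp5 was at 76.3, 68.9, 49.0 and 50.2 CPM in quiescent WT and 72.8, 38.0, 60.1 and 49.5 CPM in quiescent KO libraries, and at 19.4 and 16.2 CPM in WT and 19.5 and 11 CPM in KO libraries after culture. The log2 fold changes were -1.77 ± 0.34 and -1.86 ± 0.34 (edgeR, adjusted p = 0.000513 and 0.000302), with no overlap. Lrp5, like Fzd4, was highest in quiescent WT replicates 1 and 2 and KO replicates 1 and 3. Endothelial and mural sums were highest there too, and the part of those cells in the Lrp5 values was not tested. Lrp6 was at 121 to 207 CPM in quiescent WT and 101 and 83.6 CPM in activated WT libraries (-0.75 ± 0.31, edgeR adjusted p = 0.0776) and gave -0.36 ± 0.31 in KO cells.

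Of the R-spondin receptors, Lgr4 fell in both genotypes. It was at 67.2, 50.9, 66.6 and 76.0 CPM in quiescent and 23.5 and 28.9 CPM in activated WT libraries, and at 59.6, 52.4, 53.8 and 67.9 CPM in quiescent and 22.1 and 15.5 CPM in activated KO libraries. The log2 fold changes were -1.32 ± 0.27 and -1.64 ± 0.28 (edgeR, adjusted p = 0.00103 and 0.000148). The WT call was lost without WT activated replicate 1, at an adjusted p of 0.0505.

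Lgr5 and Lgr6 were called in KO cells alone. Lgr5 rose from 3.44, 5.60, 2.58 and 1.75 CPM to 6.94 and 11.4 CPM (1.46 ± 0.54, edgeR adjusted p = 0.0433), and its share of the summed Lgr level was 22.3% ± 10.4 (SD, n = 2) in activated KO cells and 1.88% ± 1.47 in activated WT cells. The Lgr5 call was lost without any of WT quiescent replicate 3, KO quiescent replicates 1, 3 and 4 and both activated KO libraries, and also with no filter and under the replicate block (adjusted p up to 0.400). Lgr6 fell from 3.91, 5.19, 2.24 and 1.13 CPM to 0.514 and 0 CPM, 229 reads against 2, a ratio of 12 (95% interval 3.28 to 99.6, counting error only). Its call was lost without KO quiescent replicate 2 or KO activated replicate 2, and without KO activated replicate 1 the remaining activated KO library held no read. The ligands of these receptors, Rspo1, Rspo2 and Rspo3, were at or below 2.56 CPM in all libraries, and none was called.

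Among the extracellular antagonists, Sfrp5 had the highest level and fell in both genotypes. It was at 43.5, 35.1, 39.3 and 25.1 CPM in quiescent WT and 71.4, 32.4, 47.5 and 18.7 CPM in quiescent KO libraries. After culture it was at 9.64 and 4.38 CPM in WT and 1.54 and 4.11 CPM in KO libraries, below all quiescent ones. The log2 fold changes were -2.27 ± 0.50 and -3.89 ± 0.57 (edgeR, adjusted p = 0.00169 and 2.73e-05), and they were -2.95 without WT activated replicate 1 and -4.76 without KO activated replicate 2. Quiescent KO libraries ranked alike by Sfrp5, by the endothelial sums given above and by the glial sums (622, 423, 558 and 267 CPM). Quiescent WT libraries did not rank by Sfrp5 as by either sum. The part of those cells in the Sfrp5 values was not tested. The summed Sfrp level went from between 17.3 and 25.8 CPM per kb in quiescent WT to 7.46 and 3.22 in activated WT libraries.

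Sfrp4, of the same family, fell from between 3.34 and 6.55 CPM to 1.80 and 0.876 CPM in WT cells (-1.67 ± 0.60, edgeR adjusted p = 0.0420) and from between 3.35 and 7.35 CPM to 1.28 and 2.51 CPM in KO cells (-1.57 ± 0.58, adjusted p = 0.0417). Both calls were near the threshold and were lost under 10 of 18 alternatives each, at adjusted p up to 0.289 and 0.342. The WT call was lost without WT quiescent replicate 2, 3 or 4, KO quiescent replicate 3 or any 1 of the activated libraries, and the KO call without WT quiescent replicate 2 or 3, KO quiescent replicate 1, 3 or 4 or either activated KO library. Both were lost with no filter and under the replicate block, and the KO call also with edgeR on the compared groups alone. Without WT activated replicate 1 the WT value was -2.32. Sfrp1 and Sfrp2 were not called.

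Dkk3, an atypical Dkk protein, and Dkk2, which binds Lrp co-receptors, went opposite ways. Dkk3 was at 8.72, 11.5, 5.88 and 3.42 CPM in quiescent WT and 0.653 and 0 CPM in activated WT libraries (-4.02 ± 0.86, edgeR adjusted p = 0.00138), and the call held in every alternative. The size is poorly measured, since the activated WT libraries held 4 and 0 reads, and without WT activated replicate 1 the estimate was -9.80. In KO cells Dkk3 was at 9.02, 8.88, 5.36 and 3.73 CPM before and 3.08 and 0.913 CPM after culture (-1.77 ± 0.67, edgeR adjusted p = 0.0493). That call was lost under 9 alternatives, among them without KO activated replicate 2 and without each of KO quiescent replicates 1 to 3 and WT quiescent replicates 1 to 3 (adjusted p up to 0.398), and the value was -2.87 without KO activated replicate 1.

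Dkk2 was at 3.81, 4.97, 1.58 and 1.30 CPM in quiescent WT and 7.84 and 6.57 CPM in activated WT libraries (1.32 ± 0.73, edgeR adjusted p = 0.171). In KO cells it rose from 0.365, 1.78, 4.98 and 0.944 CPM to 5.91 and 9.58 CPM (1.93 ± 0.72, edgeR adjusted p = 0.0458). The groups did not overlap in either genotype. The KO call was lost without WT quiescent replicate 1, KO quiescent replicate 1, 2 or 4, or either activated KO library, under the replicate block and with edgeR on the compared groups alone (adjusted p up to 0.299), and without KO quiescent replicate 3 the value was 2.93. Dkk4 was not called.

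Inside the cell, the change was greatest for Tcf7l1. It was at 55.7, 49.1, 52.2 and 54.6 CPM in quiescent WT and 48.6, 33.6, 53.6 and 45.5 CPM in quiescent KO libraries. After culture it was at 4.90 and 4.38 CPM in WT and 8.73 and 6.62 CPM in KO libraries. These are log2 fold changes of -3.49 ± 0.33 and -2.56 ± 0.30 (edgeR, adjusted p = 2.35e-07 and 2.46e-06), with the lowest adjusted p of all members in each genotype, and 4.56% of its exons overlap an antisense gene. The difference between the genotypes was 0.93 ± 0.41 (edgeR, adjusted p = 0.722).

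Tcf7l2 is an activating factor on many genes. The Tcf/Lef letters stand in 1 of its 2 start windows, at chr19:55895071-55895370, and not in the window at the 5′ end of the gene. Tcf7l2 fell in WT cells from 28.6, 29.7, 40.5 and 36.2 CPM to 21.2 and 11.4 CPM (-1.01 ± 0.36, edgeR adjusted p = 0.0376). The fold change lay just past the limit of 1, and the call was lost under 10 alternatives, among them without WT quiescent replicate 3 or 4, KO quiescent replicate 2, WT activated replicate 2 or either activated KO library (adjusted p up to 0.385). In KO cells it was at 29.9 to 34.7 CPM before and 10.0 and 27.8 CPM after culture and was not called. Tcf7 was at 7.94 to 20.8 CPM in quiescent and 22.2 and 22.8 CPM in activated WT libraries (0.92 ± 0.44, edgeR adjusted p = 0.119), and Lef1 lay between 0.940 and 5.16 CPM throughout. Per kb, Tcf7l1 held 61.4% ± 6.61 of the summed Tcf/Lef level in quiescent WT cells (SD, n = 4) and 9.98% ± 0.135 (SD, n = 2) in activated WT cells, where Tcf7 held 72.6% ± 6.05 against 19.8% ± 6.97 before.

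Axin2 fell from 6.68, 9.08, 11.4 and 14.3 CPM to 5.72 and 1.75 CPM in WT cells (-1.35 ± 0.48, edgeR adjusted p = 0.0403) and from 11.1, 10.8, 7.85 and 11 CPM to 1.80 and 3.65 CPM in KO cells (-1.89 ± 0.51, adjusted p = 0.00733). Of its exons, 3.80% overlap an antisense gene. The groups did not overlap, although the lowest quiescent and the highest activated WT library were close. The WT call was lost without WT quiescent replicate 2, 3 or 4 or WT activated replicate 2 and under the replicate block (adjusted p up to 0.380) and the KO call without KO activated replicate 1, and without WT activated replicate 1 and KO activated replicate 2 the values were -2.48 each. Axin1, the constitutive partner, was at 59.8 to 88.4 CPM in quiescent WT and 70.6 and 81.0 CPM in activated WT libraries, a log2 fold change of 0.03 (95% interval -0.47 to 0.54). Dvl1, Dvl2 and Dvl3 were called in no comparison, and the Dvl1 interval on activation was -0.92 to 0.33 in WT and -0.70 to 0.53 in KO cells.

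**Figure D5:**
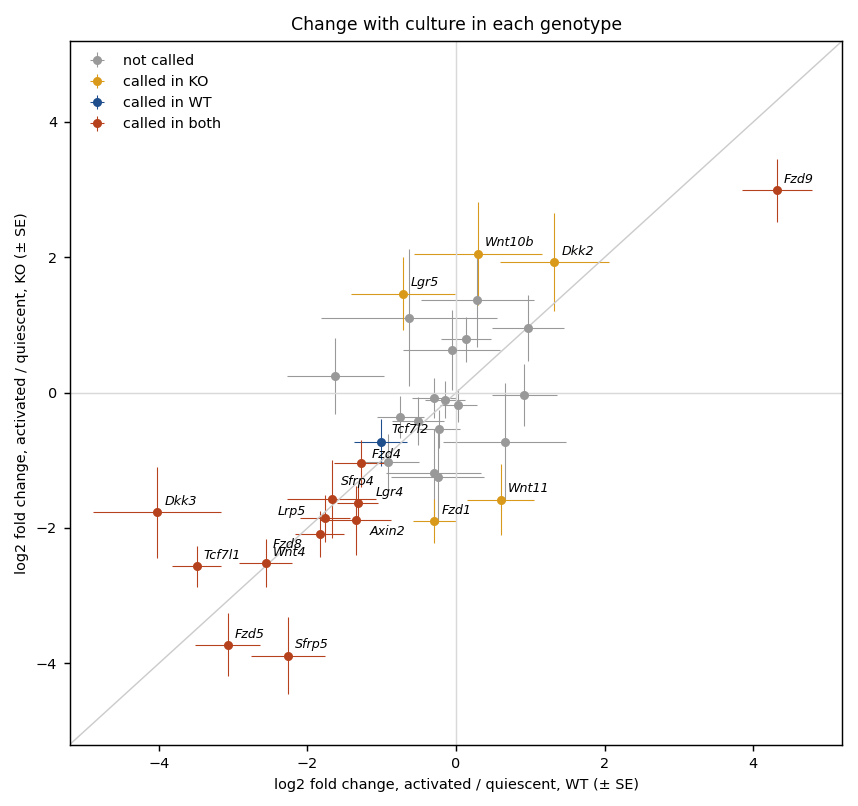
Log2 fold change of activated against quiescent cells in WT (horizontal) and KO cells (vertical), each with its SE from edgeR, for the 35 members with more than 3 counts in each activated group. Red points were called in both genotypes, blue in WT, orange in KO and grey in neither, and the diagonal marks equal change. Fzd9 is the only red point at the upper right, and 11 red points lie at the lower left.

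Of other genes of the pathway, 55 in 7 lists were tested in the same fit. On activation 21 were called in WT cells (38.2%, against 26.2% of all genes), 20 of them lower, and 22 in KO cells (40.0%, against 29.6%), 20 of them lower. The median log2 fold changes were -0.93 and -1.07. No gene of these lists was called between KO and WT in either state by edgeR, with 1 of 55 at an unadjusted p under 0.05 in quiescent and 8 in activated cells.

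By list, 5 of 8 feedback inhibitors were called in each genotype, all lower, where 16.5% of all genes in WT and 18.5% in KO cells were called lower. Both genes of Wnt secretion were called lower in WT cells, and both had negative estimates in KO cells without a call (median log2 fold change -2.36 and -0.88). Their change did not differ between the genotypes past the test (edgeR, lowest adjusted p = 0.601). Of 11 planar polarity genes and co-receptors, 4 were called lower in WT, and 5 lower and 1 higher in KO cells. Among the called genes, the 3 with the lowest estimates in WT cells were Sostdc1, a secreted antagonist at 0.482 to 2.24 CPM before and 0 after culture, whose place rests on the absence of reads, Ror1, and Celsr1, a polarity cadherin (-3.88 ± 0.99, edgeR adjusted p = 0.00572). The Celsr1 call was lost without WT activated replicate 1 (adjusted p = 0.199), and without WT activated replicate 2 its estimate was -9.01. Ror1, a receptor tyrosine kinase that binds Wnt5a, went from between 104 and 187 CPM to 3.10 and 2.19 CPM in WT (-5.57 ± 0.42, edgeR adjusted p = 2.87e-08) and from between 110 and 177 CPM to 3.34 and 3.88 CPM in KO cells (-5.18 ± 0.40, adjusted p = 2.65e-08).

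Of the 10 common targets of beta-catenin, 1 rose in both genotypes, Ccnd1 (cyclin D1), from between 48.7 and 94.0 CPM to 307 and 360 CPM in WT and from between 26.3 and 114 CPM to 180 and 149 CPM in KO cells. Its log2 fold changes were 2.23 ± 0.38 and 1.21 ± 0.39 (edgeR, adjusted p = 0.000176 and 0.0210). The KO call was lost without KO quiescent replicate 1 or KO activated replicate 1 (adjusted p up to 0.148). The other called targets were lower, 4 in WT and 5 in KO cells. The lists share genes, since Nkd1, Rnf43 and Znrf3 are also feedback inhibitors and Notum is also a secreted antagonist. Ctnnb1, which encodes beta-catenin, was at 556 to 694 CPM in quiescent and 516 and 381 CPM in activated WT libraries (-0.46 ± 0.24, edgeR adjusted p = 0.153) and was not called in KO cells (-0.67 ± 0.24, adjusted p = 0.0423, short of the fold limit), and Sp5 lay at or below 1.60 CPM in all libraries.

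Some markers of other cells were also called lower on activation. In WT cells 4 of 9 fibroadipogenic, 4 of 10 endothelial, 3 of 9 blood, 4 of 8 mural, 4 of 6 glial and 1 of 4 tenocyte markers were called lower and none higher, and in KO cells 4, 3, 5, 6, 5 and 1 were called lower and 1, a fibroadipogenic marker, higher. Over all genes 16.5% in WT and 18.5% in KO cells were called lower. The summed fibroadipogenic level was 821 to 3837 CPM in quiescent and 356 to 803 CPM in activated libraries. That sum does not stand for each marker, since 3 of the 9 had positive estimates on activation in WT and 4 in KO cells. Pdgfra was at 3.07 to 9.97 CPM in quiescent and 8.66 to 28.3 CPM in activated libraries. The mural sum was 495 to 1863 CPM in quiescent and 211 to 402 CPM in activated libraries. Glial sums were 267 to 622 and 62.7 to 203 CPM, tenocyte sums 108 to 524 and 84.0 to 295 CPM, and blood sums 88.6 to 437 and 37.2 to 76.0 CPM. Their part in the falls of the members was not tested. Of the satellite cell markers, 7 of 9 were called lower in WT and 8 of 9 in KO cells, and all 8 muscle fibre markers were called higher in each genotype.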

How the data were processed

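RNA was measured in 12 libraries of sorted Pax7-ZsGreen+ cells. The authors removed adapters with Trim Galore 0.6.0, aligned reads to GRCm38.p6 (mm10) with STAR 2.7.2a and assigned them to GENCODE genes by Rsubread. The deposited table holds these whole counts without normalization. Deposited FPKM values, 1 per group, were not used. Groups come from the sample labels. Counts were filtered with filterByExpr, which left 25771 of 55401 genes, and scaled by TMM. edgeR 4.0.16 in R 4.3.3 fitted 1 model with 4 group means, and 5 contrasts were tested by the quasi-likelihood F test with Benjamini-Hochberg adjustment over all genes tested, after checks on simulated data. A SE is the log2 fold change over the root of its F statistic. Exon lengths and coordinates are from GENCODE on GRCm38, and start windows from RefSeq on GRCm38.p6. Alternatives were DESeq2 size factors, no filter, DESeq2 1.42.0, edgeR on the compared groups, the adjusted p alone, a block for the replicate number, and each library left out in turn. Named were all members called anywhere, those at an unadjusted p under 0.05 between genotypes, the highest of each role, and the 3 largest rises and falls of the other pathway genes with Ctnnb1 and Sp5. The members and lists were chosen with earlier results of these data known. Depth limits low members: 3 counts were 0.490 to 1.31 CPM in an activated WT library and 0.125 to 0.213 CPM in a quiescent one, and intervals on ratios of counts cover counting error only.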

Additional observations from a re-analysis of the deposited data

Results flagged for a closer look

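In 2 of 48 groups of 4 libraries examined, over 24 named members, 1 library lay far from the other 3 by Dixon's ratio of gap to range, which chance gives in about 1 group in 20. Fzd1 was at 28.4 CPM in KO quiescent replicate 2, with the other quiescent KO libraries at 52.3 to 53.3 CPM. Axin2 was at 7.85 CPM in KO quiescent replicate 3, with the others at 10.8 to 11.1 CPM.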

How the results depend on the processing

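Of 66 printed log2 fold changes of 32 genes recomputed in each setting that could give them, 23 of them chosen after seeing the data, 8 changed sign, none of them called. Pathway and marker list counts were not recomputed. Between KO and WT quiescent cells, with 1 library left out, Wnt4 ran from -0.18 to 0.11, Fzd4 from -0.33 to 0.025, Axin1 from -0.013 to 0.18 and Sfrp5 from -0.12 to 0.50. On activation in WT cells Fzd1 ran from -0.52 to 0.0026, Axin1 from -0.020 to 0.21 and Dvl1 from -0.54 to 0.014, and in KO cells Dvl1 ran from -0.18 to 0.12, and was 0.22 under the replicate block. Between KO and WT quiescent cells no member was called in any setting. In activated cells, 2 members were called by DESeq2 and 2 without the filter on low counts (Fzd1 lower and Lgr5 higher in both), and leaving out 1 library gave 0 to 1. For the difference between the states DESeq2 called 1 member. Counts on activation ran from 9 to 15 in WT and 13 to 21 in KO cells when 1 library was left out, the lowest without WT activated replicate 2 (9) and without KO activated replicate 1 or 2 (13 each). The other settings stayed within 1.5 times of 14 and 21. The cause of these shifts was not tested.

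Same-numbered WT and KO libraries did not deviate together throughout (correlations 0.24, 0.16, -0.27 and 0.59 in quiescent and -0.07 in activated cells), so the numbers were not taken to pair them, and 1 of the 4 quiescent pairs matched best. Both activated pairs share 1 correlation by construction, since each genotype had 2 libraries. Total counts of same-numbered quiescent WT and KO libraries were close, at 17532019 and 17238391, 12775593 and 13075208, 23058947 and 22897189, and 22785815 and 23717013. Whether they were processed together was not tested. With the replicate number as a block, 14 members were called on activation in WT cells, of which Tcf7, Fzd2 and Wnt7b were gained while Axin2, Sfrp4 and Tcf7l2 were lost. In KO cells 17 were called, with Dvl2 gained and Dkk2, Wnt11, Lgr5, Sfrp4 and Wnt10b lost. The block called 1 member (Fzd1) between activated genotypes and none in the other comparisons.

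The activated groups had 2 libraries each and the lower depth, so their values are less precise.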
